A study of Mus musculus with 4 samples.

Results

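The genes described here are 39 mouse genes of the vascular extracellular matrix, namely 16 ADAMTS proteases and 23 genes of the basement membrane, of 3 further matrix proteins and of integrins. They were taken from a fixed list of names, all 39 of which matched the annotation, out of 21851 protein-coding genes on chromosomes 1 to 19, X and Y of mm10. For each gene, RNA polymerase II (Pol II) peaks were looked for within 1500 bp of a protein-coding transcription start site (TSS), called promoter peaks below, and in the rest of the gene, called body peaks. The measurements come from chromatin immunoprecipitation sequencing of brain endothelial cells (ECs), with 2 libraries made from WT Cre mice that were old (20 to 23 mo) and carry the CDH5-CreERT2 driver alone, and 2 from EC-K4KO mice that were young (4 to 6 mo), in which the same driver deletes floxed Klf4. All mice were on the C57BL/6J background and received tamoxifen at 8 wk, and each library was made from 200000 flow-sorted cells. The driver acts in endothelium throughout the body and not in brain alone. Age and genotype changed together, so they cannot be told apart, and Pol II in young WT Cre mice or in EC-K4KO mice of old age was not analysed here. The sources used here do not say whether a library holds cells of 1 animal or of several, so the spread between libraries may be partly technical.

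The basement membrane is the thin matrix sheet on which capillary ECs sit, between them and the pericytes and astrocyte endfeet of the blood-brain barrier. It is built from collagen IV and laminin networks that nidogens and the proteoglycans perlecan and agrin link together, and cells hold on to it through integrins. ADAMTS enzymes are secreted zinc metalloproteases that cut procollagens, versican and other proteoglycans, so they take part in making and remodelling extracellular matrix. Pol II gathers at the promoters of active and paused genes and is spread more thinly over their bodies, so a peak marks where it was found above the local background, not how much transcript was made.

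The libraries differed strongly in yield. The fragment totals in the peak file headers were 65734178 for old WT Cre replicate 1, 27455452 for its replicate 2, 35227929 for young EC-K4KO replicate 1 and 22705175 for its replicate 2. Below, WT Cre always stands for the old and EC-K4KO for the young libraries. The lists held 78851 and 39674 peaks in the WT Cre libraries and 35638 and 235591 peaks in the EC-K4KO libraries. Young EC-K4KO replicate 2 thus stood apart, with the fewest fragments and the most peaks. Over all genes, promoter peaks were present at 25.6% and 24.5% in the WT Cre and at 10.6% and 67.5% in the EC-K4KO libraries, and these shares are the background of every promoter count. Klf4 itself, the targeted gene, had a promoter peak in both libraries labelled EC-K4KO and in neither labelled WT Cre, with 1 and 0 body peaks in WT Cre and 0 and 2 in EC-K4KO. Which part of Klf4 is floxed is not given in the sources used here, so these peaks do not check the deletion, and group names below are those of the labels. Of 16 endothelial marker genes, 6 and 7 had a promoter peak in the WT Cre libraries, where genes of their length would give 30.5% and 29.8%, and 1 and 10 in the EC-K4KO libraries, where they would give 12.6% and 75.2%. The endothelial markers thus lay above genes of their length in WT Cre and below them in EC-K4KO. With 16 genes in the list these differences rest on few genes, and they were not tested. Cdh5, the gene of VE-cadherin, had body peaks in all 4 libraries, and Cldn5, the tight junction gene, had a promoter peak in young EC-K4KO replicate 2 alone. In the same order of libraries, promoter peaks were found at 3, 1, 0 and 6 of 8 microglial, 4, 1, 2 and 7 of 10 mural, 3, 2, 0 and 4 of 6 astrocyte, 1, 2, 1 and 5 of 6 neuronal, 1, 1, 0 and 5 of 6 oligodendrocyte and 1, 1, 1 and 1 of 6 fibroblast markers. The mean WT Cre share was 41.7% for astrocyte and 40.6% for endothelial markers, and lower for the other lists. Against genes of their length, astrocyte and endothelial markers differed by 12.3 and 10.5 percentage points. Mural, microglial, neuronal, oligodendrocyte and fibroblast markers differed by -1.76, -1.32, -8.66, -10.7 and -11.3. In EC-K4KO the endothelial mean was 34.4%, below the mural, microglial, neuronal and oligodendrocyte means. Endothelial markers thus lay above most other lists in WT Cre, though not above astrocyte markers, and below most in EC-K4KO. Each list is short, and the part of other cell types in the members' peaks was not tested.

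A few stretches of sequence under peaks that libraries share are shown first, as RefSeq GRCm38 sequence read 5′ to 3′ along the strand of the gene. The first is upstream of the laminin gene Lamc1 on the minus strand (chr1:153333430-153333537), the only place at a member promoter where the peaks of all 4 libraries overlapped. The second is upstream of the nidogen gene Nid2 on the plus strand (chr14:19750877-19751079), under peaks of 3 libraries. The third lies in the first part of Col4a1 on the minus strand (chr8:11312325-11312468) and at the same time upstream of Col4a2, under peaks of 2 libraries. Capitals mark CpG, of which they hold 8, 12 and 13. None of these bases is soft-masked as repeat in the reference.
Lamc1 upstream: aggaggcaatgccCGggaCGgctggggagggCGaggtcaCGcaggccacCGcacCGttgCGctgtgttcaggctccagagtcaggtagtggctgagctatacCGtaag
Nid2 upstream: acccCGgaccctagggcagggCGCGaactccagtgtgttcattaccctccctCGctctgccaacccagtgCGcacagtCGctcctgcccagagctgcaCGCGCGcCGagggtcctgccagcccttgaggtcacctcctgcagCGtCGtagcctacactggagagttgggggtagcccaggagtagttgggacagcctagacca
Col4a1 intron: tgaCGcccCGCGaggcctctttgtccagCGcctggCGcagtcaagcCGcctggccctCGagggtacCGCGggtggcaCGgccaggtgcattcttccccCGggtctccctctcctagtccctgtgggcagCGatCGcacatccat

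A further 2 stretches are made wholly of soft-masked repeat sequence, and they sit under peaks that would otherwise stand out. The first of them lies in an intron of the integrin gene Itga6 on the plus strand (chr2:71777586-71777838), under body peaks of 3 libraries, and its capitals mark runs of AGAGGC, 210 of 253 bases. The other lies in an intron of Adamts20 on the minus strand (chr15:94379234-94379433), under body peaks of 3 libraries, and its capitals again mark CpG, of which it holds 13.
Itga6 intron: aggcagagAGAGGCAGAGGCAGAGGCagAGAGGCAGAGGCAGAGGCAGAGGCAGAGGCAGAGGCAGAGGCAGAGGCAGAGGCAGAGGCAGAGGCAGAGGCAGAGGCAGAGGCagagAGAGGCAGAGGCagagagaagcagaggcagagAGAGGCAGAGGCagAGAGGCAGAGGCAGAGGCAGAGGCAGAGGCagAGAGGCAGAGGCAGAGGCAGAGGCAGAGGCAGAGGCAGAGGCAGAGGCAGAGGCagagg
Adamts20 intron: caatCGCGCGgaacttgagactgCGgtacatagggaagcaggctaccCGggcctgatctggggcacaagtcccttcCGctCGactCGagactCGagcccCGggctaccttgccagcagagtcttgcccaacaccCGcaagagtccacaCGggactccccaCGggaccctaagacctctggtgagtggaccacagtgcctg

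The members carried promoter peaks more often than other genes of their length in the old WT Cre libraries, and about as often in the young EC-K4KO libraries. A promoter peak was present at 18 of 39 members in old WT Cre replicate 1, which is 46.2% (95% exact Clopper-Pearson interval 30.1 to 62.8%), against 33.1% for genes of the same length and 25.6% of all genes. In old WT Cre replicate 2 it was present at 20 of 39, which is 51.3% (interval 34.8 to 67.6%), against 33.5% and 24.5%. Both old WT Cre libraries thus lay above genes of the same length, by 13.1 and 17.8 percentage points, although the first interval still contains the length-matched share. In young EC-K4KO replicate 1 only 5 of 39 members had one, 12.8% (interval 4.30 to 27.4%), against 14.4% and 10.6%, and in young EC-K4KO replicate 2 it was 32 of 39, 82.1% (interval 66.5 to 92.5%), against 78.5% and 67.5%. The young EC-K4KO libraries therefore lay on either side of genes of the same length, with differences of -1.57 and 3.54 percentage points that are inside their intervals. Intervals cover counting error only and treat the 39 genes as independent, which Col4a1 and Col4a2 are not. They are no test of the list, because it was made with results of these data known.

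The group means of the raw share hardly differed, at 48.7% ± 3.63 (SD, n = 2) in old WT Cre and 47.4% ± 48.95 (SD, n = 2) in young EC-K4KO, and the second mean describes neither of its libraries. After the length-matched share was taken away, the means were 15.4 ± 3.33 percentage points in WT Cre and 0.99 ± 3.61 in EC-K4KO (SD, n = 2 each), and the values of the groups did not overlap. When every list was shortened to the same number of peaks, the means were 11.2 percentage points in WT Cre and -5.10 in EC-K4KO. No p-value is given for these shares, because the genes were listed with results of these data known.

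**Figure D1:**
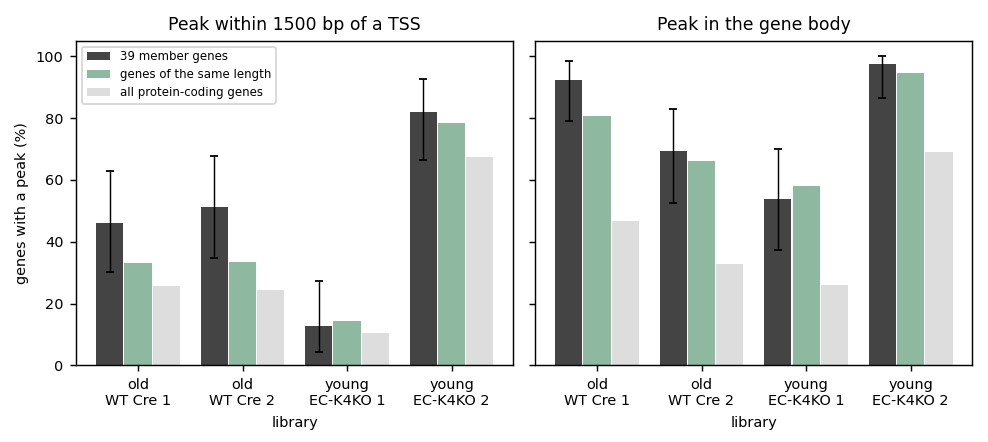
Percentage of genes with a Pol II peak (vertical axis) in each of the 4 libraries, within 1500 bp of a TSS (left) and in the gene body (right). Dark bars are the 39 members with 95% exact binomial intervals, green bars are the mean of protein-coding genes in the same length bins, and light bars are all 21851 genes. At promoters the members exceed the green bar by 13.1 and 17.8 percentage points in the old WT Cre libraries, and in gene bodies they differ from it by -4.06 to 11.6.

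In a further list of 48 matrix genes (other ADAMTS and ADAMTS-like genes, TIMP inhibitors, MMPs, further laminin, collagen IV and integrin chains, collagen-modifying enzymes, lecticans, and Dag1, Tnc, Fbln5, Efemp1 and Smoc2), promoter peaks were present at 8 and 12 genes in the old WT Cre libraries and at 3 and 38 in the young EC-K4KO libraries. These shares differed from those of genes of the same length by -10.2 ± 5.84 percentage points in old WT Cre and by -1.82 ± 7.15 in young EC-K4KO (SD, n = 2 each), so in the old WT Cre libraries they lay below the length-matched share and the members above it. Only Itga4, an integrin chain, had a promoter peak in all 4 libraries among them. The difference between the lists was not tested.

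Among the ADAMTS proteases, promoter peaks were present at 7 and 8 of 16 genes in the old WT Cre libraries and at 1 and 12 in the young EC-K4KO libraries. Genes of the same length would give 33.4% and 33.1% in WT Cre and 15.3% and 77.3% in EC-K4KO, from which the ADAMTS genes differed by 10.4, 16.9, -9.04 and -2.32 percentage points. Those with a promoter peak in both old WT Cre libraries were Adamts9, Adamts12, Adamts19 and Adamts20. The 23 other members gave 11 and 12 genes in WT Cre and 4 and 20 in EC-K4KO. The mean ADAMTS share was 46.9% ± 4.42 in WT Cre and 40.6% ± 48.6 in EC-K4KO (SD, n = 2 each).

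Over all members, 12 of 39 had a promoter peak in both old WT Cre libraries, where 10.1% of all genes and 15.1% of genes of the same length did. In both young EC-K4KO libraries it was 4 of 39, which is 10.3%, against 9.13% of all genes and 13.1% of genes of the same length. The 12 were the ADAMTS genes just named, Col4a1, Col4a2, Lamc1, Nid1, Agrn, Fn1, Itga5 and Itga6, and the 4 were Adamts5, Col18a1, Lamc1 and Nid2. Col4a1 and Col4a2 start 21 bp apart on opposite strands and were counted from the same peaks, so they are not independent. Of the 39, 9 had a promoter peak in young EC-K4KO replicate 2 alone, where 30.6% of all genes and 29.0% of genes of the same length did.

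**Figure D2:**
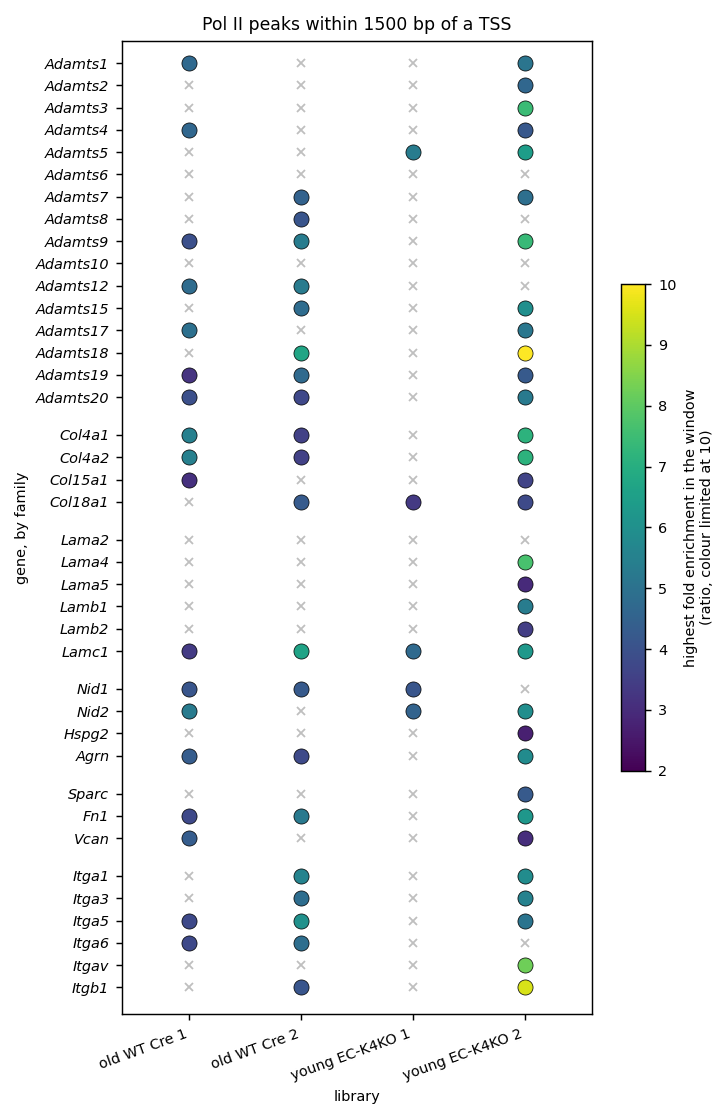
Promoter peaks of the 39 genes (rows, by family) in the 4 libraries (columns). A filled circle marks at least 1 peak, coloured by the highest fold enrichment in the window (a ratio, colour limited at 10), and a grey cross marks no peak. The column of young EC-K4KO 1 holds 5 circles and that of young EC-K4KO 2 holds 32, and Lamc1 is the only row with 4 circles.

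Adamts1, which cuts aggrecan and versican, is on chromosome 16 (85793827 to 85803113, minus strand). It had 2 promoter peaks in old WT Cre replicate 1, both with a fold enrichment of 4.70, with summits 101 and 883 bp downstream of the TSS. In young EC-K4KO replicate 2 it had 2, with fold enrichments of 5.11 and 4.90, and in the other library of each group it had none. The groups were therefore not separated at this gene. It was also the only member with no body peak in any library, where 26.5% of all genes and 3.72% of genes of the members' length had none, and at 9.29 kb it is the shortest member.

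Adamts5, a main aggrecanase, is on chromosome 16 (85856173 to 85901828, minus strand), and its TSS is 98715 bp from that of Adamts1. Its promoter peaks were found in both young EC-K4KO libraries, with fold enrichments of 5.33 and 6.42, and in neither old WT Cre library. It was the 1 member with this pattern, where 3.10% of all genes and 3.75% of genes of the same length had it. The nearest summits in the old WT Cre libraries lay 1697 and 2003 bp downstream of the TSS, just outside the window, with fold enrichments of 3.57 and 4.36. Each of them overlapped a peak of young EC-K4KO replicate 2 in the coding part of the gene, in a chain of peaks (chr16:85899349-85900267) with no base common to 3 libraries. The pattern at the promoter was kept at q of at most 1e-05, at a fold enrichment of at least 4, with lists of equal length and without the peaks of at least 50% soft-masked bases. The WT Cre peaks outside the window had −log10 q of 4.39 and 3.88, so they were below that stricter q. The pattern depends on the window. The EC-K4KO peaks do not reach a window of 500 bp, and a window of 3000 bp takes in the WT Cre peaks.

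Adamts12, which can cut cartilage oligomeric matrix protein, showed the opposite pattern, with promoter peaks in both old WT Cre libraries (fold enrichments 4.80 and 5.29) and in neither young EC-K4KO library. The summits lay 864 and 1096 bp upstream of the TSS, and both peaks were 100% soft-masked as repeat in the reference. They were the only member promoter peaks with at least 50% soft-masked bases, 1 of 20 in old WT Cre replicate 1 and 1 of 21 in replicate 2, where 10.4% and 5.58% of all promoter peaks in these libraries were of that kind. The part of repeat sequence in this pattern was not tested. Without such peaks Adamts12 lost this pattern. A promoter peak in both old WT Cre libraries was then left at 11 of 39 members, where 9.26% of all genes had one.

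Itga6, the laminin-binding integrin α6 chain, was the other of 2 members with promoter peaks in both WT Cre libraries and in neither EC-K4KO library, where 0.787% of all genes and 0.901% of genes of the same length showed this. Its fold enrichments were 3.76 and 4.85, with overlapping peaks whose summits lay 228 and 432 bp downstream of a TSS. The nearest summits in the young EC-K4KO libraries were 65478 and 9250 bp from any TSS of the gene. At q of at most 1e-05 the Itga6 pattern was lost and Adamts12 alone kept it.

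The remaining ADAMTS genes with promoter peaks in both old WT Cre libraries also had them in young EC-K4KO replicate 2. Adamts9, a widely expressed versican-cutting protease made by ECs, had fold enrichments at 1 TSS of 3.94 and 5.33 in WT Cre and 6.80 in EC-K4KO replicate 2, and the last library had further peaks at another TSS of the gene, up to 7.4. Adamts20 had overlapping peaks of these 3 libraries, at 3.94, 3.73 and 5.28, with summits 905, 158 and 432 bp downstream of its TSS. Adamts19 had 3.19, 4.75 and 4.25, and its summits lay 1364, 1128 and 263 bp downstream. The highest fold enrichment at any member promoter was that of Adamts18 in young EC-K4KO replicate 2, at 12.1, and the overlapping peak in old WT Cre replicate 2 had 6.71, with no promoter peak in the other library of either group. Neither Adamts6 nor Adamts10 had a promoter peak in any library. With the laminin gene Lama2 they made 3 of 39 members, where 25.4% of all genes and 15.1% of genes of the same length had none.

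Among the collagens of the basement membrane, promoter peaks were present at 3 of 4 genes in each old WT Cre library and at 1 and 4 in the young EC-K4KO libraries, where genes of their length would give 36.6%, 37.4%, 15.3% and 82.8%. Col4a1 and Col4a2, which encode the chains of the main collagen IV trimer, shared a region about 1 kb into Col4a2 (chr8:11313606-11314022) where peaks of 3 libraries met. Its fold enrichments were 3.27 and 3.55 in WT Cre and 7.13 in EC-K4KO replicate 2. On the Col4a1 side, the stretch printed above had 5.46 in WT Cre replicate 1 and 5.14 in EC-K4KO replicate 2. Young EC-K4KO replicate 1 had no peak closer than 16275 bp to either TSS. Col18a1, the source of endostatin, had promoter peaks in 3 libraries, with fold enrichments of 4.25 in WT Cre replicate 2 and of 3.36 and 3.79 in the EC-K4KO libraries, but none of them overlapped another. Col15a1 had promoter peaks in old WT Cre replicate 1 (3.10) and young EC-K4KO replicate 2 (3.57 and 3.62), each at a different TSS.

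The laminins had promoter peaks at 1 of 6 genes in each WT Cre library and at 1 and 5 in the EC-K4KO libraries, where genes of their length would give 33.0%, 33.5%, 14.0% and 78.0%. In WT Cre the mean difference from genes of their length was -16.6 ± 0.32 percentage points (SD, n = 2). It rests on 1 gene in each library, where genes of their length would give 1.98 and 2.01. The SD is small because both libraries had the same count. The exact interval of each WT Cre share, 0.42 to 64.1%, contains the length-matched share, so no direction is read from this difference. Lamc1, the γ1 chain found in most laminin trimers, on chromosome 1 (153218922 to 153332786, minus strand), was the 1 member with promoter peaks in all 4 libraries, where 2.22% of all genes and 3.72% of genes of the same length had them. The fold enrichments upstream were 3.38 and 6.63 in the WT Cre libraries and 4.73 and 6.25 in the EC-K4KO libraries, so the groups overlapped. The summits lay 520, 773, 753 and 713 bp upstream of the TSS, and all 4 peaks cover the stretch printed first. Overlapping promoter peaks of all 4 libraries were found at 1.13% of all genes and 1.52% of genes of the same length. Chains of overlapping promoter peaks from 3 or more libraries were found at 7 of 39 members (Adamts20, Col4a1, Col4a2, Lamc1, Nid2, Fn1 and Itga5), against 7.56% of all genes and 10.9% of genes of the same length, and from 2 or more at 22 of 39, against 28.6% and 38.8%. The other 5 laminin chains examined had no promoter peak in old WT Cre or in young EC-K4KO replicate 1. Of these, Lama4, Lama5, Lamb1 and Lamb2 had one in young EC-K4KO replicate 2, at 7.66, 2.95, 5.34 and 3.45, and Lama2 had none.

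Nidogens and proteoglycans had promoter peaks at 3 and 2 of 4 genes in WT Cre and at 2 and 3 in EC-K4KO, where genes of their length would give 31.0%, 33.0%, 13.1% and 79.9%. Nid1, which joins the laminin and collagen IV networks, had 4.14 and 4.23 in the WT Cre libraries and 4.15 in EC-K4KO replicate 1, and had no promoter peak in EC-K4KO replicate 2, the longest list. Nid2, its relative, had 5.30 in old WT Cre replicate 1 and 4.51 and up to 5.91 in the young EC-K4KO libraries. The Nid2 region shared by 3 libraries includes the stretch printed second. Agrn, the gene of agrin, had 4.33 and 3.80 in WT Cre at 1 TSS and 5.84 in EC-K4KO replicate 2 at another, so these peaks did not overlap. Hspg2, the gene of perlecan, had a weak peak in young EC-K4KO replicate 2 only, at 2.71, the lowest of any member promoter peak.

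Of the other matrix proteins, Fn1, the gene of fibronectin, had peaks that overlapped at the TSS in WT Cre replicates 1 and 2 (3.57 and 4.47) and in EC-K4KO replicate 2 (6.24). Vcan, the gene of versican, a substrate of several ADAMTS enzymes, had 4.32 in WT Cre replicate 1 and 3.03 in EC-K4KO replicate 2. Sparc, a collagen-binding protein, had 4.22 in young EC-K4KO replicate 2 alone.

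Among the integrins the replicates of each group differed. Promoter peaks were present at 2 and 5 of 6 integrin genes in old WT Cre replicates 1 and 2, and at 0 and 5 in the young EC-K4KO replicates, where genes of their length would give 32.5%, 32.9%, 13.5% and 78.6%. Itga5, the fibronectin receptor chain α5, had 3.76 and 6.01 in WT Cre and 5.08 in EC-K4KO replicate 2, in 1 shared region at the TSS. Itga1, Itga3 and Itgb1 had promoter peaks in old WT Cre replicate 2 and young EC-K4KO replicate 2 only, with fold enrichments of 5.59, 4.84 and 4.10 in the first and up to 5.86, 5.52 and 9.51 in the second. Itga1 shares its start region with a neighbouring protein-coding model, Gm49395, whose TSS is 43 bp away, so its peaks cannot be given to 1 gene. Itgav, an RGD-binding chain, had 8.25 in young EC-K4KO replicate 2 alone.

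The smallest pileup of any called peak was 13 and 8 fragments in the WT Cre libraries and 9 and 7 in the EC-K4KO libraries. The members' promoter peaks had median fold enrichments of 4.04 and 4.61 in old WT Cre and of 4.51 and 5.10 in young EC-K4KO. By the highest peak of each gene, the median was 4.23 and 4.77 for members in WT Cre, against 3.94 and 5.0 over all genes, and 4.51 and 5.43 in EC-K4KO, against 4.16 and 5.82, so members lay above all genes in replicate 1 and below them in replicate 2 of each group. A stricter q of at most 1e-05 left 2 members, Adamts9 and Adamts12, with promoter peaks in both old WT Cre libraries, where 3.78% of all genes passed, and 1 member, Adamts5, in both young EC-K4KO libraries, where 2.64% passed. The member counts in both libraries of a group therefore depend on peaks that a stricter threshold removes.

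The members' summits lay mostly downstream of the TSS, as in all genes. Downstream summits made up 68.2% and 59.1% of member promoter summits in the old WT Cre libraries, against 63.0% and 66.8% over all genes, and 61.1% in young EC-K4KO replicate 2, against 61.3%. In young EC-K4KO replicate 1 it was 2 of 5. The median distance from the TSS was 493 and 370 bp for members in the old WT Cre libraries, against 385 and 277 bp for all genes, and 464.5 bp in young EC-K4KO replicate 2, against 336 bp. The member summits were thus spread more widely in these 3 libraries, a difference that was not tested.

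**Figure D3:**
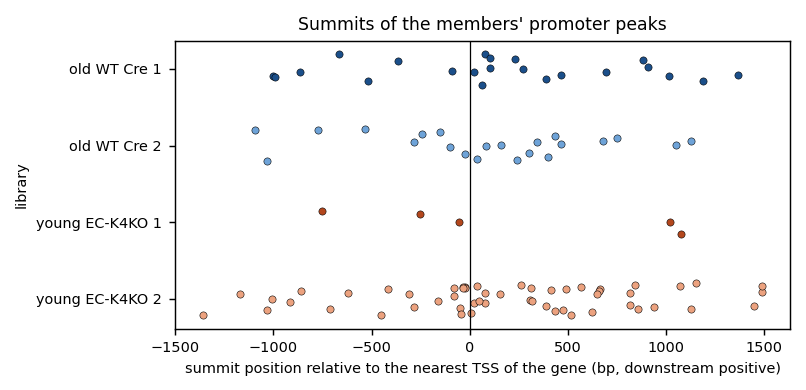
Position of each member promoter summit relative to the nearest TSS of its gene (horizontal axis, bp, downstream positive) in the 4 libraries (rows, points spread vertically for visibility). There are 22, 22, 5 and 54 points from top to bottom, and 11, 14, 2 and 29 of them lie within 500 bp of the TSS.

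In the gene bodies the members lay above genes of their length in both old WT Cre libraries and on either side of them in the young EC-K4KO libraries. Body peaks were present at 36 and 27 of 39 members in the old WT Cre libraries, which is 92.3% and 69.2% against 80.7% and 66.02% for genes of the same length and 46.8% and 32.9% of all genes. In the young EC-K4KO libraries it was 21 and 38 of 39, which is 53.8% and 97.4% against 57.9% and 94.7%, with 26% and 69.1% of all genes. The 95% exact intervals were 79.1 to 98.4% and 52.4 to 83.0% in WT Cre, and 37.2 to 69.9% and 86.5 to 99.9% in EC-K4KO. Each of them contains its length-matched share. The members are long, with a median of 87.2 kb against 17.4 kb over all genes, and long genes hold more peaks. The mean difference from genes of the same length was 7.41 ± 5.95 percentage points in WT Cre and -0.68 ± 4.79 in EC-K4KO (SD, n = 2 each). With lists of equal length it was -2.39 in old WT Cre.

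The number of body peaks was close to what gene length gives. The members held 136 and 59 body peaks in the WT Cre libraries and 50 and 444 in the EC-K4KO libraries. Genes of the same length, at the same number of peaks per base, would have held 143, 65.6, 55.2 and 414, so the ratios were 0.953, 0.8999, 0.905 and 1.07. A body peak was present in all 4 libraries at 15 of 39 members, where 15.8% of all genes and 46.1% of genes of the same length had this. In both old WT Cre libraries it was 27 of 39, against 26.9% and 61.4%, and in both young EC-K4KO libraries 21 of 39, against 24.8% and 57.3%. Neither a promoter nor a body peak was found in young EC-K4KO replicate 1 at 15 of 39 members, against 67.3% of all genes and 37.7% of genes of the same length.

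**Figure D4:**
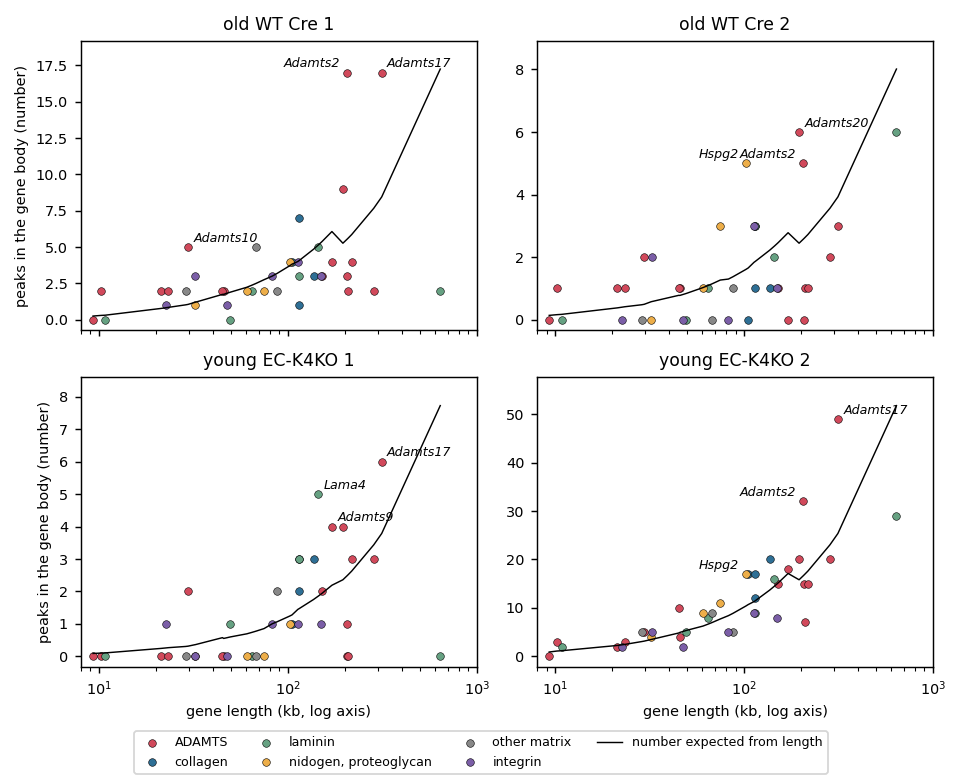
Number of body peaks of each member (vertical axis) against gene length (horizontal log axis, kb) in the 4 libraries, coloured by family, with the number expected from gene length as a line. The 3 members farthest above the line are named in each panel. Adamts17 reaches 17 and 49 peaks in WT Cre 1 and EC-K4KO 2, and the longest member, Lama2, lies below the line in every panel.

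Some members had more body peaks than their length gives. In old WT Cre the 5 highest mean ratios of observed to expected number were those of Adamts4 (6.48), Adamts10 (4.40), Itga3 (2.98), Adamts8 (2.61) and Adamts2 (2.51). In young EC-K4KO they were Adamts10 (4.005), Itga5 (2.38), Lama4 (1.899), Adamts17 (1.76) and Col18a1 (1.76). These are the ends of a ranking over 39 genes, and most rest on few peaks. Several members overlap other genes, among them Col18a1 (Slc19a1, at its 3′ end) and Nid2 (Rtraf, at its 3′ end), and body peaks in an overlap cannot be given to 1 gene.

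Adamts10, which binds fibrillin and microfibrils, was the only gene in both rankings. It is on chromosome 17 (33524204 to 33553782, plus strand), and it had 5 and 2 body peaks in the WT Cre libraries and 2 and 5 in the EC-K4KO libraries, with ratios of 4.74, 4.06, 6.41 and 1.60. All 4 libraries therefore lay above the number its length gives, and the groups overlapped. Its strongest shared body region (chr17:33545172-33545439, in an intron) had fold enrichments of 6.44 in WT Cre replicate 2 and 11.9 in EC-K4KO replicate 2. Adamts10 had no promoter peak in any library, so its peaks in these lists were body peaks.

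Adamts2, the procollagen N-proteinase, had 17 and 5 body peaks in WT Cre, 0 in EC-K4KO replicate 1 and 32 in EC-K4KO replicate 2, with ratios of 3.07, 1.94, 0.00 and 1.92. Adamts17, in which mutations disturb fibrillin matrix and growth, had 17, 3, 6 and 49, with ratios of 2.01, 0.764, 1.58 and 1.93. Lama2, the laminin α2 chain and at 640 kb the longest member, had 2, 6, 0 and 29, with ratios of 0.116, 0.749, 0.00 and 0.56. The ratios of the groups overlapped at Adamts17 and Lama2, and at Adamts2 they were separated only by 1.94 against 1.92.

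To compare groups at single genes, body peaks were expressed per 10000 peaks of the library. The values of the groups did not overlap at 7 of 38 members with any body peak in the direction of old WT Cre, where 11% of 16058 genes with any body peak were called, and at 7 of 38 in the direction of young EC-K4KO, where 10.1% were. The members are longer than most genes, and no share of genes of the same length was computed for these calls. No excess of members is therefore read from these counts. A two-sided exact permutation test of 2 libraries against 2 cannot give a p below 0.3333, and each of these 14 genes had that p of 0.3333.

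Higher in old WT Cre were Adamts4, Adamts5, Adamts8, Adamts15, Adamts20, Itga3 and Itga6. At Adamts4, an aggrecanase, the values were 0.254 and 0.252 in WT Cre and 0.00 and 0.127 in EC-K4KO, which are 2, 1, 0 and 3 peaks. Adamts5, Adamts8 and Adamts15 had the same old WT Cre values from 2 and 1 peaks and none in young EC-K4KO replicate 1. A single peak decides the order at these genes. Adamts20 had 1.14 and 1.51 against 1.12 and 0.849, from 9, 6, 4 and 20 peaks, and Itga6 had 0.507 and 0.756 against 0.281 and 0.382. Itga3, a laminin-binding chain, had 0.380 and 0.504 against 0.00 and 0.212. Adamts20 lost this order when peaks of at least 50% soft-masked bases were left out. With lists of equal length, 2 of the 7 kept it, Itga3 and Itga6, and at q of at most 1e-05 it was 3 of the 7, Adamts4, Adamts15 and Itga3.

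Higher in young EC-K4KO were Adamts9, Adamts12, Adamts18, Adamts19, Col4a2, Lama4 and Lama5. Col4a2 had 0.380 and 0.252 in WT Cre and 0.842 and 0.849 in EC-K4KO, from 3, 1, 3 and 20 peaks. Lama4, an α chain of endothelial laminins, had 0.634 and 0.504 against 1.40 and 0.679, and Adamts9 had 0.507 and 0.00 against 1.12 and 0.764. Adamts12 had 0.254 and 0.504 against 0.842 and 0.849, from 2, 2, 3 and 20 peaks, which is fewer than its length gives in every library. The order is the reverse of that of its promoter peaks, which were wholly soft-masked. Lama5, another endothelial α chain, had no body peak in WT Cre and 1 and 5 in EC-K4KO. Without the soft-masked peaks Lama4 lost this order. With lists of equal length, 4 of the 7 kept it, Adamts9, Adamts12, Adamts18 and Col4a2, and at q of at most 1e-05 it was 2 of the 7, Adamts9 and Col4a2.

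**Figure D5:**
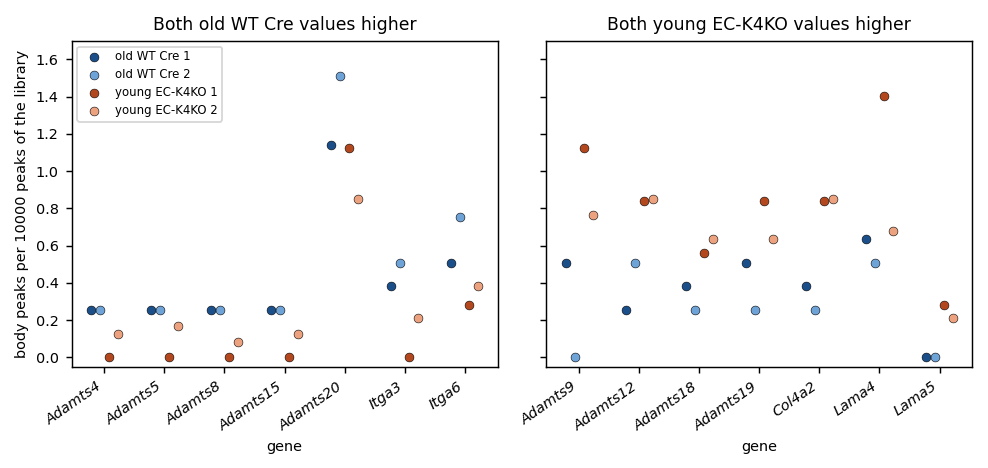
Body peaks per 10000 peaks of the library (vertical axis) at the 14 members whose group values did not overlap, with old WT Cre higher on the left and young EC-K4KO higher on the right. Each point is 1 library. Adamts20 reaches 1.51 in old WT Cre 2 and Lama4 1.40 in young EC-K4KO 1, and many other points stand for 1 or 2 peaks.

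Body regions were then formed by joining overlapping peaks. Regions with peaks of at least 2 libraries were found at 30 of 39 members, against 30.8% of all genes and 63.0% of genes of the same length. Regions with peaks of at least 3 libraries were found at 5 of 39 members, where 7.84% of all genes and 21.7% of genes of the same length had them, and 0 of 39 had 1 with all 4 libraries, against 2.13% of all genes and 6.64% of genes of the same length. Those with at least 3 were at Adamts2, Adamts5, Adamts17, Adamts20 and Itga6. In Adamts20 the region (chr15:94378858-94379654) had fold enrichments of 6.67 in WT Cre replicate 2 and of 8.13 and 8.74 in the EC-K4KO libraries, and 97.5% of its bases were soft-masked. In Itga6 the tandem repeat shown above had 4.51 and 5.22 in WT Cre and 5.20 in EC-K4KO replicate 2, and a further region (chr2:71852183-71852538, 84.0% soft-masked) reached 10.4 in WT Cre replicate 2, and a peak with the same borders was called in EC-K4KO replicate 1 at 6.24. The regions of Adamts2, Adamts5 and Adamts17 were 5.48%, 3.16% and 5.10% soft-masked. Over all body peaks of the members, 19.9% and 32.2% in WT Cre and 16% and 12.2% in EC-K4KO were at least 50% soft-masked, against 32.6%, 37.2%, 28.6% and 18.8% over all genes.

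Body peaks of the members fell in coding exons more often than those of all genes, a difference that was not tested. Coding exons held 16.9% and 22.03% of member body peaks in the WT Cre libraries and 20% and 16.4% in the EC-K4KO libraries. Over all genes coding exons held 8.89%, 12.5%, 7.97% and 10.3%. The members' bodies have more coding sequence, 3.90% of bases against 2.91%, and relative to this the members' coding peaks were 4.34, 5.65, 5.13 and 4.22 times as frequent as their bases, against 3.05, 4.31, 2.74 and 3.54 times over all genes. The member value was higher in 4 of 4 libraries, with 10 to 73 coding peaks behind it, and old WT Cre and young EC-K4KO overlapped.

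The members' promoters were somewhat richer in GC, with a median of 54.4% in the TSS windows against 48.95% over all genes. In the 300 bp from 250 before to 50 after each TSS, read from the same RefSeq genome, the letters GGGNGNGGC of a KLF/Sp site were found on either strand in 24 of 73 member windows, 32.9%, against 31.3% of 41438 windows over all genes. The ETS core TTCCGG was found in 9.59% of member windows against 18.2%, the AP-1 letters TGANTCA in 2.74% against 6.55%, and TATAAA in 6.85% against 11.8%. A TATAAA match was present at Adamts1, Adamts5, Adamts8, Adamts9 and Lama4. These are matches of letters in a fixed window, and windows of 1 gene can overlap.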

How the data were processed

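Pol II chromatin immunoprecipitation sequencing was analysed in flow-sorted brain ECs, with 2 libraries for each group (old WT Cre, young EC-K4KO). According to the study's methods, cells were fixed with formaldehyde and chromatin was cut with MNase. The authors then trimmed the reads, mapped these with Bowtie2 (mm10), dropped PCR duplicates and called peaks with MACS2 (version 2.2.7.1 per the file headers) in each library. The methods name no control library for this step, and none is among the samples. The authors deposited, for each peak, the pileup (a coverage signal in fragments), its fold enrichment (the ratio to that library's local background), and p-value and q-value as −log10. None of these was normalized between libraries, so fold enrichments are given side by side as the authors' values and not tested between libraries. The q cutoff was 0.01 per the file headers. With no input library among the samples, uneven MNase cutting and mapping cannot be told apart from Pol II in these lists.

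Peaks were matched to GENCODE M21 basic protein-coding genes (GRCm38) in Python 3.11.15 with pandas 2.3.3, numpy 2.4.6 and scipy 1.17.1. A promoter peak overlaps, by at least 1 bp, a window reaching 1500 bp from any protein-coding TSS of its gene in both directions, and a body peak has its summit in the gene outside these windows. The length-matched share is the mean share over all protein-coding genes in the members' own length bins (20 bins of equal gene number). The steps were tested on simulated data. Libraries held 22705175 to 65734178 fragments.

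Genes were named by rule: members with promoter peaks in all 4 libraries, in both of a group or in none, Adamts1, the 5 highest body ratios per group, those whose group values did not overlap, and those with body regions of 3 or 4 libraries. Further genes were named to complete each family. The members and lists were chosen with earlier results of these data known. Alternatives were a stricter q, a fold enrichment of at least 4, equal list lengths, other windows, summits, bins, denominators and leaving out each replicate. Repeat content, matching on TSS number and matching on GC were added after seeing the data. The narrow peak and summit files repeat the same peaks and were not used, and neither were the ATAC-seq and RNA-seq data.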

Additional observations from a re-analysis of the deposited data

How the results depend on the processing

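The promoter share of the members stayed above genes of the same length in old WT Cre under every alternative run, by 8.69 to 23.7 percentage points. The raw promoter share in old WT Cre moved from 48.7% to 28.2% (q of at most 1e-05), 33.3% (fold enrichment of at least 4), 34.6% (lists of equal length and, separately, a 500 bp window) and 53.8% (3000 bp window). Above length-matched genes it moved from 15.4 to 8.88, 10.5 and 11.2 percentage points under the first 3 settings, to 8.69 with a 500 bp window, and to 23.7 and 20.2 when matched on the number of TSS or on GC. In young EC-K4KO it moved from 0.99 to 8.32 when matched on the number of TSS and changed direction to -2.28 (q), -2.40 (fold enrichment), -5.10 (equal lists), -2.37 (500 bp window) and -2.71 (3000 bp window). The body share in old WT Cre moved from 80.8% to 60.3% (q), 59.0% (fold enrichment) and 61.5% (equal lists). Above length-matched genes it moved from 7.41 to 0.72 (q) and changed direction to -3.95 (fold enrichment) and -2.39 (equal lists), and in young EC-K4KO it changed direction from -0.68 to 4.44 (q), 3.93 (without soft-masked peaks) and 0.17 (outside 3000 bp of the TSS). The causes were not tested.

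Members with promoter peaks in both libraries of old WT Cre moved from 12 to 2 (q), 2 (fold enrichment), 3 (equal lists) and 6 (500 bp window), and of young EC-K4KO from 4 to 1 (q), 1 (equal lists) and 2 (500 bp window). Over all genes the old WT Cre share moved from 10.1% to 3.78% (q), 4.59% (fold enrichment) and 4.74% (equal lists). The young EC-K4KO share over all genes moved from 9.13% to 2.64% (q) and 5.21% (equal lists). Members whose body peaks per 10000 peaks did not overlap moved from 7 to 4 (q) and 2 (equal lists) with old WT Cre higher, and from 7 to 4 (q) with young EC-K4KO higher. Of the 4 at that q, 3 with WT Cre higher and 2 with EC-K4KO higher were among the original 7, and Adamts10, Col4a1 and Col18a1 were not. Over all genes with any body peak, the share called moved from 11% to 10.5% (q) and 9.93% (equal lists) with old WT Cre higher. With young EC-K4KO higher it moved from 10.1% to 4.42% (q). With equal lists 34 members had any body peak, against 38 as reported. Young minus old changed direction at q of at most 1e-05 for Adamts5 (0.144), Adamts8 (0.0359) and Adamts20 (0.763), and with equal lists for Adamts5 (0.140).

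With each library left out in turn, the WT Cre promoter share ranged from 46.2% to 51.3% and the EC-K4KO share from 12.8% to 82.1%. The differences from genes of the same length ranged from 13.1 to 17.8 (WT Cre) and from -1.57 to 3.54 (EC-K4KO). For the body share the ranges were 69.2% to 92.3% (WT Cre) and 53.8% to 97.4% (EC-K4KO), with differences of 3.21 to 11.6 and -4.06 to 2.71. The number of members with promoter peaks in both libraries of a group ranged from 12 to 20 (WT Cre) and from 4 to 32 (EC-K4KO). The lowest values are those with a library of the other group left out, and a group left with 1 library asks for a peak in that library alone, which gave 18 or 20 (WT Cre) and 5 or 32 (EC-K4KO). No paired analysis was possible because the labels tie no replicate number of one group to the same number in the other, and the shares come from no test.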
